A study of Mus musculus with 9 samples.

Results

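The genes of major histocompatibility complex (MHC) antigen presentation followed here in the mouse brain after a stroke were H2-K1, H2-D1, B2m, Tap1, Tap2, H2-Aa, H2-Ab1, H2-Eb1, Cd74 and Ciita. They were found on the array through the RefSeq accession of each probe. All 10 were present, with 12 probes on 31 spots, among 55681 non-control probes in all, and they are 10 of the 30837 genes that could be tested. The study used brain RNA of adult male C57BL/6 mice, with 3 mice and 3 one-colour arrays per group. VEGF mice had a 90 min occlusion of the middle cerebral artery and, 3 h after reperfusion, 1 µl of the human growth factor VEGF-A165 (10 µg/ml, recombinant) into the right lateral ventricle. MCAO mice had the same occlusion and the same injection at the same time, but of phosphate-buffered saline. Sham mice had sham surgery, and the labels give no injection for them. Every brain was taken 24 h after reperfusion, and 21 h after any injection. The mice were 50 to 53 days old. The labels do not say which part or side of the brain was used.

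MHC class I molecules stand on nearly all nucleated cells and show peptides made inside the cell to CD8 T cells. Their heavy chain (H2-K1, H2-D1) pairs with the light chain B2m, and the Tap1 and Tap2 proteins together form the pump that carries peptides into the endoplasmic reticulum. MHC class II molecules show peptides taken up from outside to CD4 T cells and are mostly made by dendritic cells, B cells and macrophages, and in the injured brain also by microglia. H2-Aa and H2-Ab1 encode the alpha and beta chains of I-A, H2-Eb1 encodes the beta chain of I-E, and Cd74 is the invariant chain that guards the class II groove. Ciita is the master activator of class II genes and does not bind DNA itself. Mice of the C57BL/6 background lack a functional alpha chain for I-E, so H2-Eb1 RNA there gives no I-E at the cell surface.

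Most of the members lie in the MHC on chromosome 17. In GRCm38.p6, the RefSeq annotation places H2-K1 at chr17:33996012-34000619, Tap1 at chr17:34187556-34197225, Tap2 at chr17:34204479-34216321, H2-Ab1 at chr17:34263227-34269418, H2-Aa at chr17:34282744-34287823, H2-Eb1 at chr17:34305867-34316674 and H2-D1 at chr17:35263094-35267497. B2m is at chr2:122147687-122153082 and Ciita at chr16:10480014-10531064. All 10 members are protein-coding genes.

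RefSeq promoter windows, from 250 bases before to 50 bases after the start site in GRCm38.p6, were at hand for 6 members: H2-K1, H2-D1, B2m, Tap1, H2-Aa and H2-Eb1. Windows of 5 are shown because class I and class II genes are known to share a promoter module, the X and Y boxes, that the class I and class II activators Nlrc5 and Ciita act through. Capitals mark the Y box CCAAT, the X2 box core TGACG, the X1 box core CTAGCAAC and the NF-kappa B palindrome (the run upstream of the other capitals in H2-K1 and H2-D1), each searched on both strands. H2-K1 has a pair of overlapping windows, of which 1 is shown. The windows are, for H2-K1, chr17:34000298-34000597 on the minus strand, for H2-D1, chr17:35262844-35263143 on the plus strand, for B2m, chr2:122147437-122147736 on the plus strand, for H2-Aa, chr17:34287774-34288073 on the minus strand, and for H2-Eb1, chr17:34305617-34305916 on the plus strand.
H2-K1: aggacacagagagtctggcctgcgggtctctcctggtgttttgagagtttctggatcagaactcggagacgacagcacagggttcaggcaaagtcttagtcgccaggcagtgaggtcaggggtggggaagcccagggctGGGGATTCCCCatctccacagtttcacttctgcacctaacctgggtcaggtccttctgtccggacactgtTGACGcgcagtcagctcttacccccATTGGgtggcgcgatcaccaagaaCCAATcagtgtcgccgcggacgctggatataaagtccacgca
H2-D1: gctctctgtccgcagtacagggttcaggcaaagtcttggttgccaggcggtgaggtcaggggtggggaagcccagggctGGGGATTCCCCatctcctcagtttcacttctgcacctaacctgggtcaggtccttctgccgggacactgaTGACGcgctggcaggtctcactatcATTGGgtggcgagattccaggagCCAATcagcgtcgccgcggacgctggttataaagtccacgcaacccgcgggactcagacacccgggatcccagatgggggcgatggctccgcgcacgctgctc
B2m: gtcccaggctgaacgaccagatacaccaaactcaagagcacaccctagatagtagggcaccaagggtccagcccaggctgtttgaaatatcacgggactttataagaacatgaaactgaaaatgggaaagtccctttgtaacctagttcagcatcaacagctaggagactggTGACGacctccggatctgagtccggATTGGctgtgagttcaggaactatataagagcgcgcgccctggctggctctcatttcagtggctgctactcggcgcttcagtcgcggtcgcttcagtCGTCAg
H2-Aa: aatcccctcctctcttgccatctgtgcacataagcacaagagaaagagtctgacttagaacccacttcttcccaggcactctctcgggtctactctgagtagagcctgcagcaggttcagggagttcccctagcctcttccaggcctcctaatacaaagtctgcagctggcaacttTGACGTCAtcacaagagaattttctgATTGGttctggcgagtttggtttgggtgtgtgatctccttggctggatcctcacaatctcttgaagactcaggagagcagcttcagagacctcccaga
H2-Eb1: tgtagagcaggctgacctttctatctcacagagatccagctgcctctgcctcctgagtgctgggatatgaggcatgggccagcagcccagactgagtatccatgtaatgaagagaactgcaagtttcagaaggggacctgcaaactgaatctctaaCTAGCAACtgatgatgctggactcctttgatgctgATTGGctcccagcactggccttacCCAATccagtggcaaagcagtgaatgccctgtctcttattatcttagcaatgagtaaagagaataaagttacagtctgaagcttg
The Y box letters were in 6 of 6 member windows, against 37.4% of all 32851 promoter windows. The X2 core letters were in 5 of 6, all but H2-Eb1, against 20.8%, and in H2-Aa they stand as TGACGTCA, a match on both strands that overlap. Both motifs together were in 5 of 6 member windows, against 7.73% of all windows, whatever their order or distance. In H2-K1, H2-D1, B2m and H2-Aa a Y box lies downstream of an X2 core. In Tap1, whose window is not shown, the Y box is upstream, at -222, and the X2 core at -86. The NF-kappa B palindrome was in the windows of H2-K1 and H2-D1, against 0.0304% of all windows, that is 10 windows of 9 genes, another of which is the class I gene H2-Q6. The windows of H2-K1 and H2-D1 were also 88.3% identical, at 211 of 239 aligned bases. CTAGCAAC was in the H2-Eb1 window, against 1.32%. Of the interferon motifs, the core of the interferon-stimulated response element was in the B2m window, against 3.44%, and the interferon-gamma activated site TTCNNNGAA was in none of the 6, against 8.3%. A match is a description of these letters and not evidence of binding.

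Levels below are log2 signals relative to the 75th percentile of the same array, so 0 is the signal of a probe at that percentile and 1 unit is a doubling. Levels of different probes cannot be set against each other. All 10 genes were well above background on all 9 arrays. The 3 sham arrays were on 1 slide and the 6 ischaemic arrays on another, so slide and ventricular injection cannot be told apart from ischaemia. MCAO array 1 and VEGF array 1 stood apart from the other 4 ischaemic arrays: the median of 10 neuron markers relative to sham was between -2.44 and -2.33 log2 units on the pair, against -0.86 to -0.45 on the other 4. The median of 10 endothelial markers was 1.74 to 2.44 on the pair, against 0.30 to 0.63 on the other 4. The pair also had the smallest 75th percentile signals: 797 (MCAO array 1) and 723 (VEGF array 1), beside 1320 to 1770 for the other 4. Sham arrays were at 1250 to 1340. Levels are relative to this signal, so a smaller one gives a higher level from the same intensity. How far this raised the pair's levels was not tested. MCAO array 1 was also scanned on another day than the rest. Counts of genes that passed are therefore also given without this pair.

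The class I genes were higher on every ischaemic array than on any sham array. H2-K1, a class I heavy chain, had log2 levels of 5.90, 4.35 and 3.61 on VEGF arrays 1 to 3, 5.31, 4.19 and 4.28 on MCAO arrays 1 to 3, and 1.96, 2.43 and 2.18 on the sham arrays. H2-D1, the other classical heavy chain, had 5.48, 3.87 and 3.29 in VEGF, 5.08, 3.70 and 3.81 in MCAO, and 2.03, 1.97 and 1.89 in sham. In both, array 1 of each ischaemic group was the highest of its group and the sham arrays lay below all ischaemic ones. B2m, the light chain that every class I molecule needs, had 5.60, 4.21 and 3.72 in VEGF, 5.10, 4.21 and 4.29 in MCAO, and 2.86, 3.10 and 2.86 in sham, again with every ischaemic array above every sham array.

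Both genes of the peptide pump were also higher on all 6 ischaemic arrays than on any sham array. Tap1 had log2 levels of -1.11, -2.00 and -2.72 in VEGF, -1.13, -2.23 and -1.80 in MCAO, and -3.16, -3.90 and -4.04 in sham. Tap2 had 2.67, 1.63 and 0.92 in VEGF, 2.40, 2.07 and 2.27 in MCAO, and 0.00, 0.03 and 0.19 in sham. The VEGF arrays of Tap2 were spread more widely than the others, at 1.74 ± 0.88 in VEGF, 2.24 ± 0.17 in MCAO and 0.07 ± 0.10 in sham (SD, n = 3 each).

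Class II genes were less evenly apart. H2-Ab1, the I-A beta chain, had log2 levels of 2.52, 1.99 and 0.51 in VEGF, 2.11, 1.44 and 1.27 in MCAO, and 0.17, -0.41 and -0.46 in sham, with no overlap of ischaemic and sham arrays. Cd74, the invariant chain (chr18:60803849-60812652 in GRCm38.p6), had 2.24, 1.29 and 0.39 in VEGF, 1.45, 0.65 and 0.32 in MCAO, and 0.06, -1.05 and -1.03 in sham. It too did not overlap, though MCAO array 3 and VEGF array 3 came close to sham array 1. H2-Aa, the I-A alpha chain, had -2.08, -2.36 and -4.28 in VEGF, -2.57, -3.09 and -3.19 in MCAO, and -3.33, -3.87 and -3.97 in sham. H2-Eb1, the I-E beta chain, had 1.62, 1.26 and -0.39 in VEGF, 1.19, 0.37 and 0.39 in MCAO, and 0.14, -0.38 and -0.50 in sham. For H2-Aa and H2-Eb1 the MCAO arrays lay above all sham arrays, while VEGF array 3 lay among or below the sham arrays.

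Ciita, the class II activator, had log2 levels of -4.39, -4.76 and -4.58 in VEGF, -4.43, -4.28 and -4.51 in MCAO, and -4.49, -4.83 and -4.80 in sham. Its ischaemic and sham arrays overlapped in both comparisons. The spread was small in each group, at SDs of 0.19 in VEGF, 0.12 in MCAO and 0.19 in sham (n = 3 each). Ciita was read from 1 probe on 1 spot. Its 95% limma intervals against sham were -0.13 to 0.73 log2 units in MCAO and -0.30 to 0.56 in VEGF, which leaves a change of Ciita undecided.

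**Figure D1:**
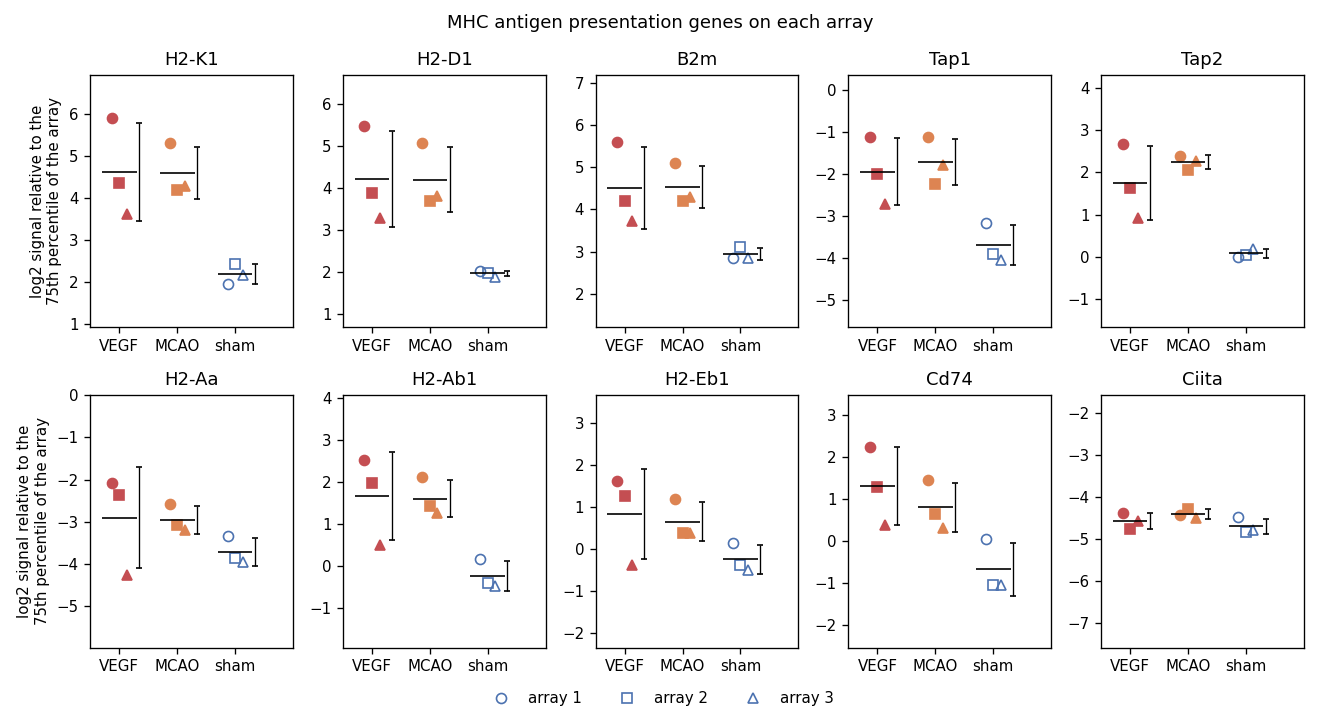
Log2 signal relative to the 75th percentile of the array (vertical axis, 6 units high in every panel) of the 10 genes in VEGF, MCAO and sham. Points are arrays (circle 1, square 2, triangle 3), lines are group means and bars are SDs; the class I genes of the upper row lie above sham on all 6 ischaemic arrays, and Ciita overlaps.

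The first comparison asked how ischaemia with vehicle differed from sham surgery. Tap2 rose by 2.17 ± 0.39 log2 units (± SE of the fit, 3 arrays per group), and was the 1 member of 10 that passed the threshold (limma adjusted p = 0.0250), against 2.81% of all genes tested. The other 4 class I genes differed by 2.41 ± 0.55 for H2-K1, 2.23 ± 0.56 for H2-D1, 1.60 ± 0.46 for B2m and 1.98 ± 0.46 for Tap1, with limma adjusted p of 0.0614, 0.0791, 0.109 and 0.0614. Of the class II genes, H2-Ab1 differed by 1.84 ± 0.49 and Cd74 by 1.48 ± 0.52, with limma adjusted p of 0.0901 and 0.164. H2-Eb1 differed by 0.90 ± 0.50, H2-Aa by 0.77 ± 0.53 and Ciita by 0.30 ± 0.19, with limma adjusted p of 0.329, 0.414 and 0.375. All 10 differences were above 0, against 46.8% of all genes, and 7 had an unadjusted p under 0.05, against 21.4%. The groups did not overlap, with MCAO higher, in 9 of 10, against 19.6% of all genes. The median over the members was 1.72, beside -0.04 over all genes.

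The call on Tap2 did not survive the loss of any array of either group: leaving out MCAO array 1, 2 or 3 gave limma adjusted p of 0.0511, 0.0616 and 0.0810, and leaving out sham array 1, 2 or 3 gave 0.125, 0.0988 and 0.0982. Without VEGF array 1, which enters this comparison through the shared spread alone, 6 members passed, against 8.38% of all genes, and without VEGF array 3, 4 passed, against 2.81% of all genes. With MCAO array 1 and VEGF array 1 both left out, H2-K1, H2-D1, B2m, Tap1, Tap2 and H2-Ab1 passed, all higher in MCAO, against 22.8% of all genes and 9.79% in that direction. Their differences were then 1.31 (B2m) to 2.09 (Tap2), with limma adjusted p of 0.00288 to 0.0440. In brain tissue, fewer or more cells of a type and less or more RNA per cell cannot be told apart.

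The second comparison set VEGF-treated ischaemic brains against sham. None of the 10 members passed in limma, against 2.43% of all genes, and 7 had an unadjusted p under 0.05, against 23.5%. H2-K1 differed by 2.43 ± 0.55, H2-D1 by 2.25 ± 0.56, B2m by 1.57 ± 0.46, Tap1 by 1.75 ± 0.46 and Tap2 by 1.67 ± 0.39, with limma adjusted p of 0.0645, 0.0831, 0.115, 0.0888 and 0.0677. Cd74 differed by 1.98 ± 0.52 and H2-Ab1 by 1.90 ± 0.49, with limma adjusted p of 0.0916 and 0.0885. H2-Eb1 differed by 1.07 ± 0.50, H2-Aa by 0.82 ± 0.53 and Ciita by 0.13 ± 0.19, with limma adjusted p of 0.235, 0.354 and 0.685. All 10 differences were above 0, against 42.4% of all genes. The groups did not overlap, with VEGF higher, in 7 of 10 (all but H2-Aa, H2-Eb1 and Ciita), against 18.2% of all genes. The median over the members was 1.71, beside -0.12 over all genes.

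Without MCAO array 1 and VEGF array 1, 6 members passed in VEGF against sham: the 5 class I genes and Cd74, against 20% of all genes and 8.76% in the higher direction. Their differences were 1.03 (B2m) to 1.79 (H2-K1), with limma adjusted p of 0.00488 to 0.0495. Leaving out MCAO array 1 alone gave 5 members, against 10.6% of all genes, and leaving out VEGF array 3 alone gave 3, against 2.12% of all genes. Both comparisons share the sham arrays, so their values are set side by side here without a measure of agreement.

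**Figure D2:**
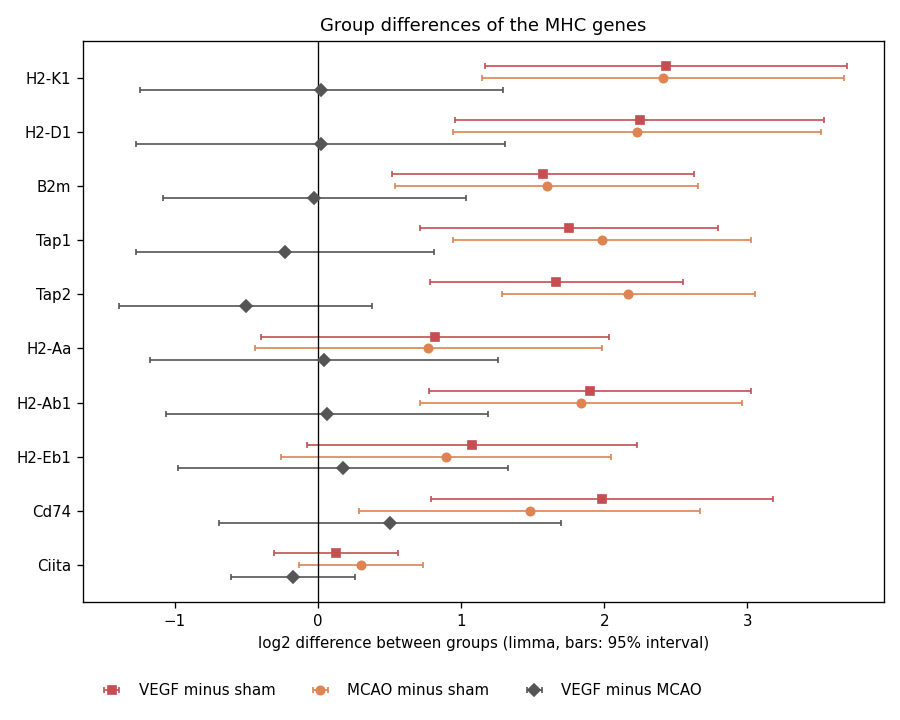
Log2 difference between groups (horizontal axis) for each gene, with 95% intervals from limma, for VEGF minus sham (squares), MCAO minus sham (circles) and VEGF minus MCAO (diamonds). The class I genes lie between 1.57 and 2.43 against sham, and every VEGF minus MCAO interval spans 0.

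The third comparison asked whether VEGF changed these genes relative to vehicle, and no member differed beyond the spread. None of the 10 passed in limma, against 0.00649% of all genes (2 genes), and none had an unadjusted p under 0.05, against 2.78%. VEGF minus MCAO ran from -0.50 ± 0.39 for Tap2 to 0.50 ± 0.52 for Cd74, and limma's adjusted p was 0.9999 for each member. The arrays of the groups overlapped for every member, while they did not for 5.8% of all genes. The 95% intervals reached from -1.39 (Tap2, lower bound) to 1.70 (Cd74, upper bound), which is the range of differences that 3 arrays per group leave possible. For H2-K1, the interval was -1.24 to 1.29, and for Ciita -0.60 to 0.26.

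The ischaemic arrays themselves varied widely, and in the same way for most members. VEGF array 1 was the highest of the 6 ischaemic arrays for 9 of 10 members, and VEGF array 3 was the lowest for 8 of 10. The shares over all genes were not counted, so these orders are not shown to be particular to the members. VEGF array 1 also had the lowest 75th percentile signal, at 723, and the next lowest was that of MCAO array 1, at 797. Averaged over the 5 class I genes, the level relative to the mean of the sham arrays was 3.01, 1.72 and 1.07 on VEGF arrays 1 to 3 and 2.66, 1.70 and 1.88 on MCAO arrays 1 to 3. Averaged over H2-Aa, H2-Ab1, H2-Eb1 and Cd74, it was 2.29, 1.76 and 0.28 on VEGF arrays and 1.76, 1.06 and 0.92 on MCAO arrays. On VEGF array 3 the class I genes were 0.78 to 1.42 above the sham mean and the class II genes between -0.56 and 1.07 (Cd74) relative to it. Cd74 was nearer to sham on MCAO array 3, at 0.99.

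**Figure D3:**
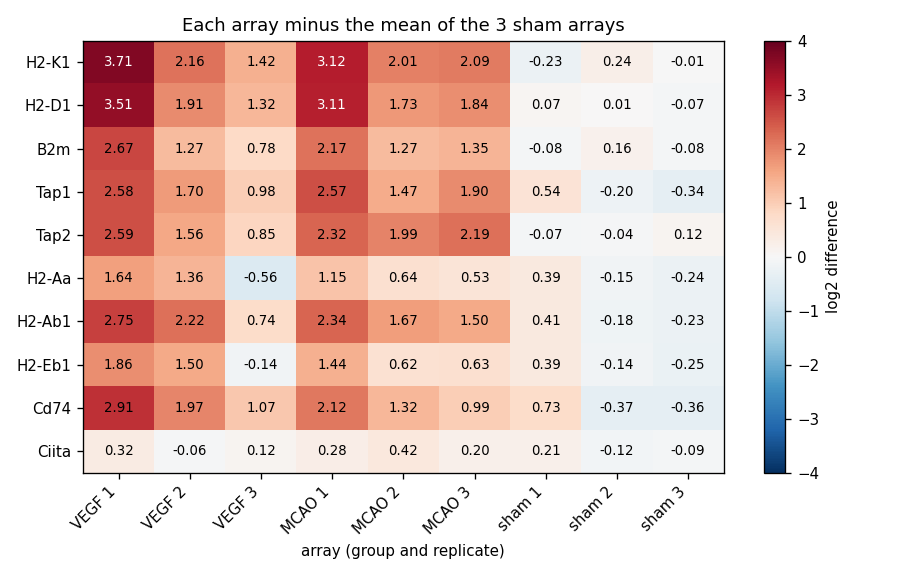
Level of each gene on each array minus the mean of the 3 sham arrays, in log2 units (colour and printed value), with arrays grouped as VEGF, MCAO and sham. H2-K1 reaches 3.71 on VEGF array 1, and H2-Aa and H2-Eb1 are below the sham mean on VEGF array 3.

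Across the 9 arrays, H2-K1, H2-D1 and B2m followed each other with Pearson correlations of 0.992 to 0.993, and all pairs of class I genes lay between 0.943 and 0.993. Pairs of H2-Aa, H2-Ab1, H2-Eb1 and Cd74 lay between 0.848 and 0.981, and class I with class II pairs between 0.745 and 0.967. Ciita correlated at 0.441 to 0.673 with the others. These points share the array, its scaling and the sham against ischaemia split, and the values are descriptions. Within the 6 ischaemic arrays alone, H2-K1 and B2m correlated at 0.997, and Ciita with H2-Aa at 0.0834.

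Technical repeats were close. The 10 spots of the H2-K1 probe had an SD of 0.0235 to 0.105 log2 units within an array, the 10 of Tap1 0.0466 to 0.111 and the 2 of B2m 0.0117 to 0.0798. The other H2-K1 probe differed by 2.24 in VEGF against sham and by 2.23 in MCAO against sham, and the other H2-Ab1 probe by 2.03 and 1.93, in the directions of the probes used.

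The genes whose pattern over the 9 arrays was most like the class I mean, of 17579 named genes that are no members, were H2-Q2, H2-K2, Gm11127, Tspo and H2-Q6, with Pearson correlations of 0.996 to 0.997. H2-Q2, H2-K2 and H2-Q6 are class I genes of similar sequence, so their probes may share signal with H2-K1 and H2-D1, which was not tested. Tspo, a mitochondrial protein that marks activated microglia and macrophages, differed by 2.44 in VEGF against sham and 2.60 in MCAO against sham, with limma adjusted p of 0.0703 and 0.0541. Most like the class II mean were Lix1l, Fstl3, Cnga3, Palld and Ms4a7, with correlations of 0.963 to 0.985. Ms4a7, a gene of macrophages, differed by 2.13 and 2.03, with limma adjusted p of 0.133 and 0.150.

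Around the members, the peptide supply and loading genes of class I were measured for 12 of 12, and 2 passed in each comparison with sham, both higher. Over all genes, 2.43% passed in VEGF and 2.81% in MCAO. Nlrc5, the class I counterpart of Ciita, rose by 2.76 ± 0.46 in VEGF and by 3.37 ± 0.46 in MCAO (limma adjusted p = 0.0200 and 0.00868). Its levels were -0.90, -1.24 and -2.50 in VEGF, -0.38, -1.62 and -0.81 in MCAO and -4.62, -4.11 and -4.18 in sham, with no overlap. Psmb8, a subunit of the immunoproteasome that cuts peptides for class I, rose by 2.61 ± 0.44 in VEGF and 2.58 ± 0.44 in MCAO (limma adjusted p = 0.0208 in both). The median of this list was 0.84 in VEGF and 0.92 in MCAO, against -0.12 and -0.04 over all genes. Without MCAO array 1 and VEGF array 1, 6 of the 12 rose in VEGF and 6 in MCAO, and none fell. Over all genes, 8.76% rose in VEGF and 9.79% in MCAO without the pair. Psmb9 at 1.45 and 1.47 and Tapbp, which holds class I to the pump, at 1.13 and 1.07 did not pass.

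Of 14 other class I heavy chains tested, out of 17 listed, H2-Q10 was higher in both comparisons, by 2.07 ± 0.38 in VEGF and 2.00 ± 0.38 in MCAO (limma adjusted p = 0.0299 and 0.0315). H2-Q1 fell by 2.08 ± 0.41 in MCAO (limma adjusted p = 0.0354), and its difference in VEGF was -0.83 (limma adjusted p = 0.251). The list median was 1.31 in MCAO, and 9 of 14 had an unadjusted p under 0.05 with a higher level in each comparison. Of all genes, 23.5% in VEGF and 21.4% in MCAO had an unadjusted p under 0.05 in either direction. Without the pair, 6 were higher and 1 lower in VEGF, and 7 were higher and 1 lower in MCAO. Over all genes, 2.43% passed in VEGF and 2.81% in MCAO, and without the pair 20% and 22.8%. H2-T23, the heavy chain of Qa-1, which binds an inhibitory receptor of natural killer cells, differed by 2.09 and 2.01, with limma adjusted p of 0.0656 and 0.0681. Probes of these H2-Q and H2-T genes, H2-Q10 and H2-T23 among them, may also share signal with H2-K1 and H2-D1, which was not tested.

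Of 19 tested genes of class II loading and regulation, Ifi30, a lysosomal thiol reductase that opens antigens for class II, passed, by 2.86 ± 0.51 in VEGF and 2.70 ± 0.51 in MCAO (limma adjusted p = 0.0263 and 0.0308). The list had a median of 0.19 in VEGF and 0.15 in MCAO. Without the pair, 6 were higher and 2 lower in VEGF, and 5 were higher and 4 lower in MCAO. Over all genes, 2.43% passed in VEGF and 2.81% in MCAO, and without the pair 20% and 22.8%. The peptide-loading gene H2-DMb1 was at 1.53 and 1.23 and H2-DMa at -0.80 and -0.77, and the Y box factor genes Nfya and Nfyb at 0.27 and -0.66 in VEGF and 0.28 and -0.71 in MCAO, none of which passed. Rfx5, part of the factor that binds the X box, was at -0.29 and -0.74.

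Of 18 interferon gamma pathway genes, 4 rose in VEGF and 5 in MCAO, and none fell, while 2.43% and 2.81% of all genes passed. Without MCAO array 1 and VEGF array 1, 8 rose in VEGF and 11 in MCAO, and none fell, against 8.76% and 9.79% of all genes that rose. Cxcl10, a chemokine that attracts T cells, rose by 5.50 ± 0.70 in VEGF and 5.16 ± 0.70 in MCAO (limma adjusted p = 0.00772 and 0.00887). The GTPases Gbp2 and Irgm1 rose by 2.59 ± 0.23 and 2.09 ± 0.21 in VEGF and by 2.63 ± 0.23 and 2.23 ± 0.21 in MCAO, with limma adjusted p of 0.00132 to 0.00238. Irf1, a transcription factor of interferon signalling, rose in VEGF by 1.88 ± 0.34 (limma adjusted p = 0.0286), and was at 1.48 in MCAO (limma adjusted p = 0.0614). Gbp3 and Irf9 rose in MCAO, by 2.10 and 1.86, and were at 1.78 and 1.64 in VEGF. Ifng itself, the interferon gamma gene, had levels of -5.83, -6.41 and -5.64 in VEGF, -6.31, -6.87 and -6.88 in MCAO and -7.84, -6.45 and -6.90 in sham, and did not pass (limma adjusted p = 0.148 and 0.572). Ifng was well above background on 3 VEGF, 2 MCAO and 2 sham arrays, so it was tested through the VEGF group alone. Levels this near background leave a change of Ifng undecided. The median of the list was 1.15 in VEGF and 1.05 in MCAO. Among 10 costimulation genes, Cd274, which encodes the inhibitory ligand PD-L1, rose in MCAO by 2.79 ± 0.53 (limma adjusted p = 0.0319) and was at 2.49 in VEGF (limma adjusted p = 0.0533). Without the pair, 6 of the 10 rose in VEGF and 3 in MCAO, against the same 8.76% and 9.79% of all genes. In VEGF against MCAO none of these lists held a gene that passed, with or without the pair.

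**Figure D4:**
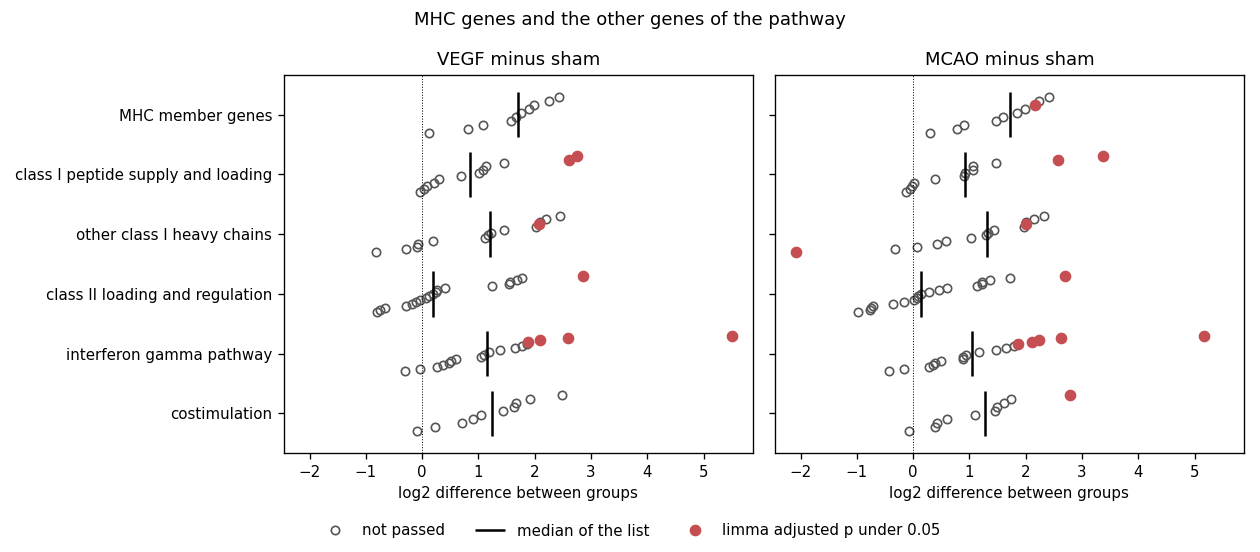
Log2 difference against sham of each gene (points) in the MHC genes and in 5 other pathway lists, for VEGF minus sham and MCAO minus sham. Red points passed at a limma adjusted p under 0.05, open points did not, and black lines are list medians, which are 1.71 and 1.72 for the MHC genes and 0.19 and 0.15 for class II loading and regulation.

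Some markers of cells that carry MHC molecules moved beside the members, and others, such as the B cell markers, did not pass. The part of these cells in the results was not tested. Of 8 monocyte and neutrophil markers, 7 rose in each comparison, while 2.43% of all genes passed in VEGF and 2.81% in MCAO. The summed linear level of the list (in units of the 75th percentile signal) was 111 to 234 in VEGF, 110.1 to 266 in MCAO and 82.1 to 105 in sham. Csf3r, the list's brightest probe, which did not pass, made up 43.5 to 74.8% of that sum in VEGF, 42.7 to 83.6% in MCAO and 98.4 to 99.4% in sham. Cxcr2 and Mmp8 were well above background on 0 sham arrays, so their sham levels are upper bounds. Both passed the filter only through the ischaemic groups, where they are high. Ccr2, the receptor of inflammatory monocytes, was well above background on 3 VEGF, 3 MCAO and 1 sham arrays, with levels of -0.98, -0.48 and -2.66 in VEGF, -1.61, -2.22 and -1.88 in MCAO and -6.64, -7.15 and -7.29 in sham. Ccr2 too passed the filter only through the ischaemic groups. Of 11 microglia and macrophage markers, Fcgr1 and Adgre1 rose in both comparisons and P2ry12, a receptor of resting microglia, fell by 2.31 ± 0.20 in VEGF and by 2.67 ± 0.20 in MCAO. The summed level of that list was 130.0 to 306 in VEGF, 136 to 186 in MCAO and 100.3 to 127 in sham. Itgam, its brightest probe, which did not pass, made up 15.9 to 39.4% of that sum in VEGF, 26.6 to 43.3% in MCAO and 47.6 to 48.4% in sham. Of 6 border macrophage markers, F13a1 rose in both, and the summed level was 4.61 to 30.5 in VEGF, 7.36 to 12.4 in MCAO and 2.36 to 2.44 in sham. Pf4, the brightest probe there, which did not pass, made up 41.9 to 68.8% of the sum in VEGF, 43.1 to 71.8% in MCAO and 41.3 to 43.4% in sham. Without the pair, the monocyte and neutrophil list again had 7 higher in each comparison. The microglia and macrophage list then had 4 higher and 1 lower in VEGF and 4 higher and 2 lower in MCAO. The border macrophage list had 4 higher in VEGF and 6 in MCAO. Over all genes, 20% passed in VEGF and 22.8% in MCAO without the pair, and 8.76% and 9.79% were higher. The 6 include Cd163, which was well above background on 3 VEGF, 2 MCAO and 0 sham arrays. It was tested only through the VEGF group, and its sham levels are upper bounds.

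Of 9 dendritic cell markers, Itgax passed in MCAO and none in VEGF, and the summed level was 97.1 to 209 in VEGF, 118 to 134 in MCAO and 60.8 to 67.0 in sham. Siglech, found in plasmacytoid dendritic cells and also in microglia, made up 97.4% or more of that sum on every array and did not pass (limma adjusted p = 0.0848 in VEGF and 0.0992 in MCAO). Without MCAO array 1 and VEGF array 1, 3 dendritic cell markers were higher in VEGF, and 4 were higher and 1 lower in MCAO. None of 8 B cell markers passed in limma, with an unadjusted p under 0.05 in 3 in VEGF (1 higher and 2 lower) and in 0 in MCAO. The share of all genes with an unadjusted p under 0.05 in either direction was 23.5% in VEGF and 21.4% in MCAO. The summed level of the B cell markers overlapped at 0.458 to 1.05 in VEGF, 0.587 to 1.08 in MCAO and 0.632 to 0.714 in sham. Without the pair, 1 B cell marker was higher and 3 lower in VEGF, and 1 was higher and 2 lower in MCAO. Ms4a1, the B cell antigen CD20, was well above background on 1 VEGF, 3 MCAO and 0 sham arrays. Blk, the marker counted as higher in VEGF by unadjusted p, was well above background on 3 VEGF, 2 MCAO and 0 sham arrays. Blk was therefore tested only through the VEGF group, where it is high. Of 7 T cell markers, Cd3d rose in both, by 2.03 ± 0.29 in VEGF and by 2.26 ± 0.29 in MCAO, and the summed level was 9.03 to 10.8 in VEGF, 8.27 to 9.42 in MCAO and 7.53 to 10.2 in sham. Cd4, the brightest probe of that list, which did not pass, made up 67.4 to 72.1% of the sum in VEGF, 71.2 to 74.6% in MCAO and 68.7 to 75.2% in sham. Without the pair, 1 T cell marker was higher and 1 lower in each comparison. Over all genes, 2.43% passed in VEGF and 2.81% in MCAO, and without the pair 20% and 22.8%. The T cell counts without the pair are near these shares. Xcr1 and Cd3g were left untested, since in no group were they well above background on all 3 arrays.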

How the data were processed

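RNA of 9 mouse brains was measured on 9 one-colour arrays in groups of 3, grouped by the sample titles. Per the file headers and the submitters' processing notes, Agilent Feature Extraction 10.7.1.1 made the deposited processed intensity, which is background-subtracted and detrended but not scaled between arrays. On MCAO array 1 the deposited intensity equals the signal without division by the trend. The authors also deposited a table of log2 values, used as an alternative; how it was scaled is not given in the sources used here.

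Each probe's log2 intensity was set against the 75th percentile of its own array, taken over probes that are not controls. The 43921 probes well above background on all 3 arrays of a group were kept, the brightest standing for a gene, and 30837 genes were tested with limma 3.58.1 in R 4.3.3, in 1 fit of 9 arrays with Benjamini-Hochberg adjustment at 0.05. The number of arrays limits the precision. The scripts were tested on simulated data. Per the series' design text, the arrays of a group are different mice. Same-numbered VEGF and MCAO arrays deviated together, with correlations of 0.587, 0.224 and 0.558, each over 0.1. Differently numbered arrays gave -0.563 to 0.392. Arrays 2 and 3 were not set apart by number: VEGF array 3 with MCAO array 2 gave 0.392, and VEGF array 2 with MCAO array 3 gave 0.234. The reported fit has no pairing. The numbers were taken as pairs in an alternative fit alone, where a block for them changed no member call in VEGF against MCAO.

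Members and gene lists were chosen with earlier results of these data known. All members are named; of each other list, up to 4 genes past the threshold with the smallest p, or else the 1 with the smallest p, and the 5 genes most like each class. Other list genes given with values were chosen after their values were seen. Sequences and coordinates are from RefSeq (GRCm38.p6).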

Additional observations from a re-analysis of the deposited data

How the results depend on the processing

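In MCAO against sham, the members that passed numbered 1 as reported, 3 with quantile normalization and with the authors' value table, and 6 with the 2 groups fitted alone, with a replicate block, with age as a covariate, or without MCAO array 1 and VEGF array 1. Leaving out 1 array at a time gave 0 to 6. In VEGF against sham they numbered 0 as reported, 1 with quantile normalization and with the authors' table, 5 with the replicate block and with age, and 6 without the pair; leaving out 1 array gave 0 to 5. In VEGF against MCAO they numbered 0 under all of these.

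Limma's array weights, run first with the default method, did not converge and put a weight of 57.6 on MCAO array 2. That fit passed 10, 9 and 4 members in MCAO against sham, VEGF against sham and VEGF against MCAO, with 18457, 13189 and 8391 genes in all. The 4 in VEGF against MCAO were Tap2 and Ciita lower and H2-Eb1 and Cd74 higher, and Tap1 turned to 0.18. The gene-by-gene method, chosen after seeing that result, passed 8, 8 and 0 members, with 12439, 7296 and 27 genes. Neither is used for a statement above.

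The replicate block used numbers that sham shares in name only: same-numbered deviations correlated at 0.0268, -0.107 and 0.151 for MCAO with sham and at -0.0322, 0.135 and 0.112 for VEGF with sham. The cause of the changed calls was not tested.

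Over all genes, 868 passed for MCAO and 748 for VEGF, each against sham. Counts over 1.5 times apart from these were 7028 and 6175 without the pair, 1594 (MCAO) with age, 1788 (MCAO) with the 2 groups alone, and 556 and 438 with normexp; the recomputed signal gave 563 (MCAO), and in VEGF split 541 higher and 507 lower, where the reported split was 638 and 110. Leaving out 1 array gave 190 to 2583 and 156 to 3270.

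Every member kept its direction against sham under all alternatives, except Ciita in VEGF against sham, at -0.17 with the recomputed signal. In MCAO against sham Ciita, 0.30 as reported, was at 0.16 with normexp and 0.06 with the recomputed signal. It reached up to 0.49 in the settings other than leaving out 1 array. In VEGF against MCAO, 41 of 240 values changed sign. With quantile normalization H2-K1, H2-D1 and Ciita were at -0.0889, -0.101 and 0.0454, with the authors' table at -0.0909, -0.0994 and 0.0450, with normexp Ciita at 0.0548, with the recomputed signal H2-Aa at -0.00532, and with the 75th percentile over probes above background on all arrays H2-K1 and H2-D1 at -0.00964 and -0.0163. With age, H2-K1, H2-D1, H2-Aa, H2-Ab1 and H2-Eb1 were at -0.19, -0.23, -0.25, -0.22 and -0.11. Without the pair H2-K1, H2-D1, H2-Aa and H2-Ab1 were at -0.26, -0.17, -0.18 and -0.11. With 1 array left out, the range was -0.62 to 0.53 for H2-K1, -0.62 to 0.48 for H2-D1, -0.57 to 0.37 for B2m, -0.64 to 0.16 for Tap1, -0.37 to 0.73 for H2-Aa, -0.36 to 0.64 for H2-Ab1 and -0.22 to 0.79 for H2-Eb1. The VEGF against MCAO counts over all genes, 2 as reported, were 0 to 4 with the other settings apart from the weights.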

Other observations

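The 4 arrays of 50 day old mice (sham array 1, MCAO array 1, VEGF arrays 1 and 2) lay above every other array of their own group for 4 of 4 class II genes (H2-Aa, H2-Ab1, H2-Eb1 and Cd74), and for 2 of 5 class I genes (H2-D1 and Tap1), against 8.88% of all genes tested. This was noticed after the values were seen. Relative to the sham mean, the class II average was 0.48 on sham array 1, against -0.21 and -0.27 on the other sham arrays. MCAO array 1 and VEGF array 1, which stood apart, are both of that age, and so is VEGF array 2, which did not stand apart.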
